A study of Homo sapiens with 12 samples.

Results

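Genes of cholesterol and fatty acid synthesis were examined in 3 human lung cancer cell lines after knockdown of the transcription factor NRF2. The group was set by a list of 28 genes, the enzymes from the first step of the mevalonate pathway to cholesterol, the enzymes that make and desaturate fatty acids, and the sterol-responsive regulators SREBF1, SREBF2, INSIG1 and the sterol carrier STARD4. Of these, 27 were matched among the 57815 genes of each expression file, and ACACA, acetyl-CoA carboxylase, was not analysed here. The rule itself uses no expression value.

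RNA sequencing covered 12 libraries of A549, H2023 and H460, non-small cell lung cancer lines in which mutated KEAP1 no longer holds NRF2 in check. Each line received control siRNA or NRF2 siRNA and was harvested after 48 h, with 2 libraries in each of the 6 groups. The controls were biological duplicates per the study's methods, whereas the knockdown libraries of a line were made with different siRNAs, siRNA 28 always in replicate 0 and siRNA 30 always in replicate 1. Both NRF2 siRNA libraries were treated as replicates of the knockdown, so the spread within that group includes the difference between the siRNAs. All groups carry mutated KEAP1, and p-values measure only the spread between these libraries. A549 RNA was depleted of ribosomal RNA and the other lines were selected for polyA RNA, so protocol and line cannot be told apart where A549 is set against H2023 or H460.

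Cells make cholesterol from acetyl-CoA through mevalonate, farnesyl diphosphate, squalene and lanosterol, and make palmitate from the same precursor by fatty acid synthase. Both routes are switched on by SREBP transcription factors, the products of SREBF1 and SREBF2, which are held in the endoplasmic reticulum by INSIG proteins when sterols are plentiful. NRF2, encoded by NFE2L2, drives genes of glutathione synthesis and NADPH supply in lung cancers that lack working KEAP1.

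SREBPs bind sterol regulatory elements beside CCAAT boxes, which bind NF-Y. The RefSeq promoter windows (GRCh38.p14, 250 bases before and 50 after a transcript start) covered 25 of the 28 listed genes with 34 windows, and these letters were searched on both strands. CCAAT stood in 24 of the 34 windows, or 70.6%, against 34.6% of all 35116 windows. The sterol regulatory element TCACNCCAC stood in 1 of the 34, or 2.94%, that of SREBF2, against 1.13% of all windows. TGANNNNGC, the short form of the antioxidant response element bound by NRF2, stood in 15 of the 34, or 44.1%, against 41.8% of all windows. The E-box CACGTG was in 4 windows, or 11.8%, against 7.26%, and the GC box GGGCGG in 30, or 88.2%, against 45.0%. A match of letters is a description of the window and no evidence of binding. The 250 bases before the start are shown for 3 genes that were higher on average after knockdown, SREBF2 because it holds the element, and TM7SF2 and HMGCS1 as the largest average change and the entry enzyme of the mevalonate pathway. Capitals mark the sterol regulatory element and CCAAT, read here as ATTGG on the gene's strand.
SREBF2, chr22:41832855-41833104, plus strand: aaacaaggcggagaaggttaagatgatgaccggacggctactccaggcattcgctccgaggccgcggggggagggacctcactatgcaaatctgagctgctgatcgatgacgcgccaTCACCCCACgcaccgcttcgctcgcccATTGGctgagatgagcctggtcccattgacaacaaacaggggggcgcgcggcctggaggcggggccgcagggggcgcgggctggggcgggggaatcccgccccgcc
TM7SF2, chr11:65111622-65111871, plus strand: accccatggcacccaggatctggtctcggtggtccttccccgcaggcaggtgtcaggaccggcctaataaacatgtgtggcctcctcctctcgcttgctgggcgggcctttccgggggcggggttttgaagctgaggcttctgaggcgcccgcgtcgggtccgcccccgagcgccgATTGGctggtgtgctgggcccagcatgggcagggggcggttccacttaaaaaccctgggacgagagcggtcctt
HMGCS1, chr5:43313413-43313662, minus strand: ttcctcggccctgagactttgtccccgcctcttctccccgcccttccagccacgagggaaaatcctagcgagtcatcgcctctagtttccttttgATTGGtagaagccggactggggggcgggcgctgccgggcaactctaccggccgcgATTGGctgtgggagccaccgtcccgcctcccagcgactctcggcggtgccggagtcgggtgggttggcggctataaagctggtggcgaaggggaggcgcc
SREBF2 had the element once, with 1 CCAAT box after it. TM7SF2 had 1 CCAAT box and HMGCS1 had 2 in the stretch shown. HMGCS1 has another window, chosen against here because it holds 0 CCAAT boxes, with 2 matches of TGANNNNGC.

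Values are FPKM, in which fragment counts are scaled by transcript length and sequencing depth. Read totals were not used here, and the number of libraries limits the precision. From 12732 to 13909 genes reached 1 FPKM in a library. NFE2L2 was lowered in every line, from 38.2 and 30.9 FPKM to 5.31 and 7.84 in A549, from 120.0 and 118 to 7.74 and 6.80 in H2023, and from 144 and 99.5 to 6.54 and 12.2 in H460. None of the 5 lung lineage markers averaged 1 FPKM in any group, and CDH1 and EPCAM stayed at or below 1.19 FPKM in H460. The 6 epithelial markers summed to 2810 and 3386 FPKM in H2023 controls against 6012 and 6336 after knockdown, and to 1154 to 1346 against 1763 to 2633 in H460. The immune markers summed to 15.5 to 16.4 FPKM against 29.8 to 33.9 in A549, the stromal markers to 5.74 to 6.84 against 12.1 to 16.1 in H460 and to 2.14 to 3.92 against 3.99 to 8.76 in H2023, and the adipocyte and hepatocyte markers of H2023 to 3.96 to 22.9 against 6.60 to 109. The part of these markers in the results was not tested. In H460 the mitochondrial genes took 8.56% and 13.1% of all FPKM in controls against 20.8% and 26.0% after knockdown. Leaving them out moved the median log2 change of all genes from -0.01 to 0.12 in H460 from 0.02 to 0.10 in H2023 and from 0.02 to -0.07 in A549. Fewer cells of a type and less RNA per cell cannot be told apart in such bulk samples.

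The list was well expressed. In controls the genes ran from 8.07 FPKM for PMVK to 258 FPKM for ACLY in A549, with a median of 40.7. In H2023 they ran from 0.664 FPKM for EBP to 198 for FDPS, with a median of 45.7. In H460 they ran from 1.26 FPKM for TM7SF2 to 248 for SCD, with a median of 36.0. EBP, the sterol isomerase, was at 0.539 to 1.13 FPKM in the 4 H2023 libraries and at 46.7 to 120.2 in the others, a contrast noticed after the values were seen. EBP did not pass the filter of 1 FPKM in 2 libraries in H2023, so 26 genes were tested there, in the average effect and in the difference between lines, and 27 in A549, in H460 and between siRNAs. FDPS, SCD and HSD17B7 have processed or duplicated copies in the genome, so their values may share reads with those copies.

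After NRF2 knockdown the list lay highest against its controls in H2023 and lowest in H460, a description with no test over the list. Changes are given as log2(FPKM + 1) with NRF2 siRNA minus control, a scale on which low genes change less than their fold. In H2023 all 26 genes lay above 0 with a median of 0.70, in A549 19 of 27 lay above 0 with a median of 0.21, and in H460 18 of 27 lay below 0 with a median of -0.25. The median of all genes tested was 0.02, 0.02 and -0.01. Without mitochondrial genes the medians of the list were 0.79 in H2023, 0.105 in A549 and -0.10 in H460. The medians for the list differed between the siRNA 28 and siRNA 30 libraries. In that order they were 0.96 and 0.51 in H2023, 0.35 and 0.02 in A549, and 0.06 and -0.71 in H460. The siRNA runs with the replicate number in every line.

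**Figure D1:**
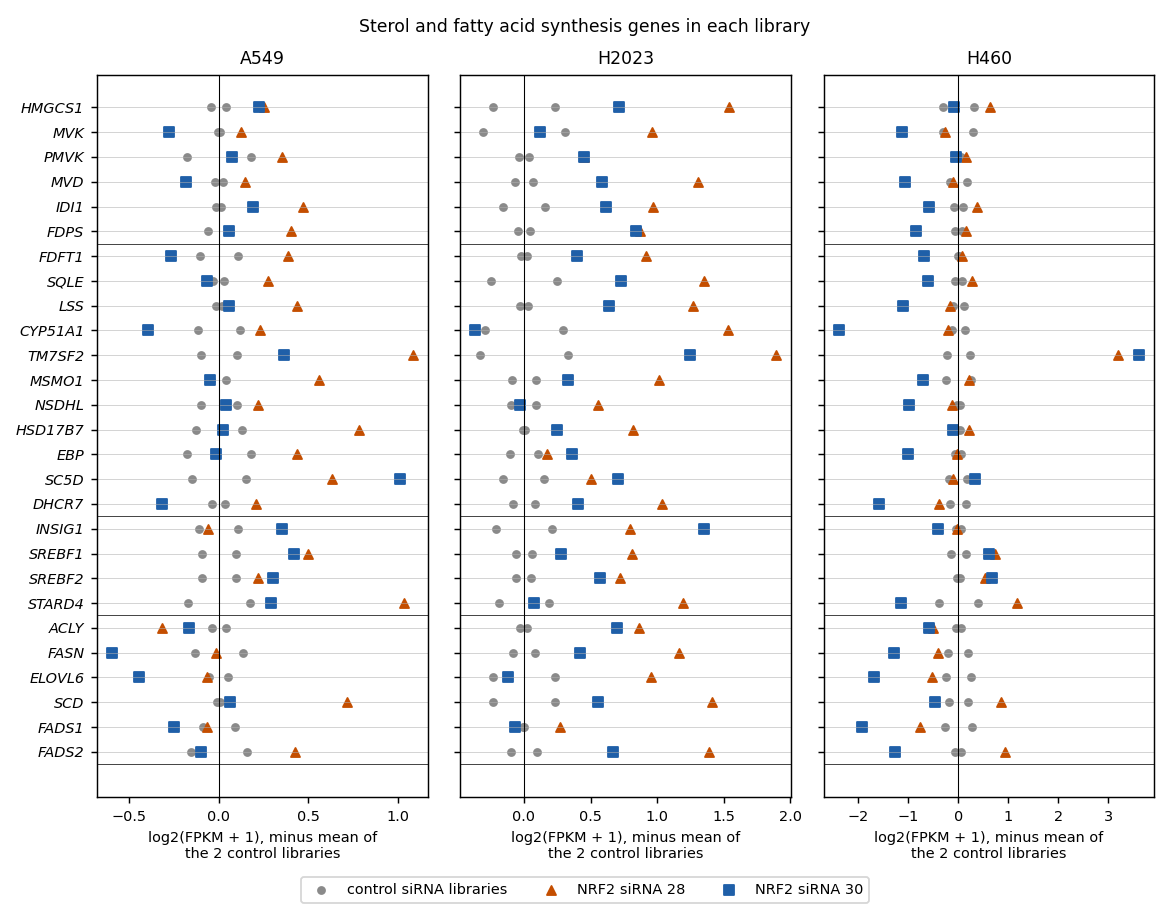
Horizontal axis, log2(FPKM + 1) of each library minus the mean of the 2 controls of its line, for the 27 genes grouped by role (lines separate the roles; each panel has its own scale). Grey circles are controls, triangles siRNA 28 and squares siRNA 30. In H2023 both symbols stand right of both controls for 20 of the 26 tested genes, whereas in H460 21 squares stand left of both controls, and TM7SF2 stands far right. EBP in H2023 was below the filter and is drawn only for completeness.

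Single genes seldom passed the test within a line. By limma with adjustment over all genes, 0 of 27 genes were called in A549, where 0.676% of all tested genes were called, and 0 of 26 in H2023, where 0.910% were. In A549 the unadjusted p was under 0.05 for 3 genes that were higher (background 8.27%) and for 0 that were lower (4.99%). In H2023 it was under 0.05 for 18 of 26 genes that were higher, or 69.2% against 10.2% of all genes, and for 0 that were lower against 6.68%. In H460 1 gene was called higher, TM7SF2, which passed the filter there only through its knockdown libraries, where the background was 7.12% of genes, and 0 lower, where it was 6.86%. At an unadjusted p under 0.05 H460 had 3 genes higher (17.0% of all genes) and 5 lower (16.7%). A single fit of all 12 libraries, which pools the spread over lines, called 1 of 26 genes in A549, against 1.83% of all genes, 4 in H2023, against 4.17%, and 4 in H460, against 21.7%. These were SC5D in A549, then TM7SF2, INSIG1, SREBF2 and ACLY, all higher, in H2023, and TM7SF2 and SREBF2 higher with ACLY and FADS1 lower in H460.

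The library counts gave the same order of lines. Both NRF2 siRNA libraries lay above both controls for 20 of 26 genes in H2023, where the share over all genes was 27.0%, and below for 0, against 22.0%. In A549 both lay above for 9 of 27 genes, against 25.2%, and below for 2, against 20.5%. In H460 both lay above for 3 of 27, against 31.1%, and below for 8, against 31.6%. The counts within a line changed when 1 library was left out, though a knockdown arm of 1 library then takes its spread from the 2 controls alone. Without the siRNA 30 library of H2023, 17 of 26 genes were called higher there, against 3.99% of all genes, and without the siRNA 28 library 2, against 3.47%. Without the siRNA 28 library of H460, 12 were called, 11 of them lower, against 11.0% of all genes, and without the siRNA 30 library 2, both higher, against 7.30%. Without either control of H460 none was called, and 0.00744% of all genes were.

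**Figure D2:**
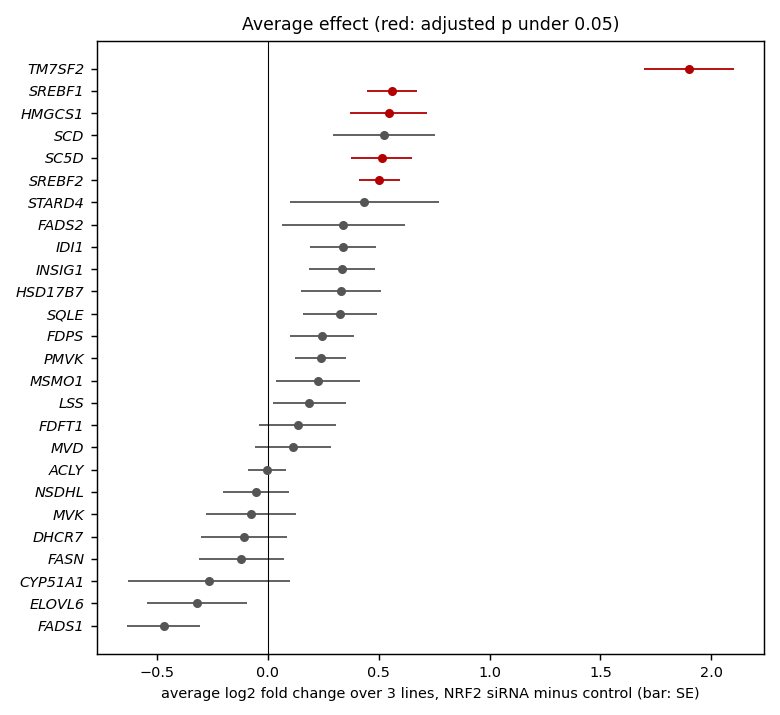
Average log2 fold change over the 3 lines (NRF2 siRNA minus control, 12 libraries) for the 26 genes tested in all of them, with bars of 1 standard error and genes sorted by value. The 5 genes in red passed the test, all to the right of 0. TM7SF2 is farthest at 1.90, and FADS1 is the lowest at -0.47. TM7SF2 passed the filter in H460 only through its knockdown libraries.

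Averaged over the lines, 5 of 26 genes rose, TM7SF2, SREBF1, SREBF2, SC5D and HMGCS1, and 0 fell. TM7SF2 enters this count and that of its role only because its knockdown libraries in H460 passed the filter. The shares over all 11571 genes tested were 15.1% higher and 14.5% lower, so the count of 5, or 19.2%, is near the background. The median of the 26 genes was 0.24. Among roles, 2 of the 4 regulator and transport genes rose, 2 of 10 from squalene to cholesterol, 1 of 6 of the mevalonate pathway and 0 of 6 of fatty acid synthesis. By library, leaving out control replicate 1 of H2023 or of H460 left 3 genes called, against 9.62% and 8.70% of all genes, and leaving out the siRNA 30 library of H460 gave 11, against 15.2%.

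SREBF1 and SREBF2 rose on average, with higher values in all 3 lines. SREBF1 (chromosome 17, 17713713 to 17740316 in GRCh37, minus strand) encodes SREBP1, which drives mainly fatty acid genes. It was at 93.1 and 81.3 FPKM in A549 controls against 123 with siRNA 28 and 117 with siRNA 30, at 63.8 and 58.7 against 108 and 74.5 in H2023, and at 136 and 111 against 206 and 189 in H460. In every line both knockdown libraries lay above both controls. The average log2 change was 0.56 ± 0.11 (SE, adjusted p = 0.00464), and the test of a difference between lines gave an adjusted p of 0.870.

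SREBF2 (chromosome 22, 42229109 to 42303310, plus strand) encodes SREBP2, which drives mainly cholesterol genes. It was at 24.6 and 21.4 FPKM in A549 controls against 26.9 and 28.5 after siRNA 28 and siRNA 30, at 40.8 and 37.7 against 65.2 and 58.9 in H2023, and at 30.3 and 29.1 against 43.3 and 48.1 in H460. Again no knockdown library overlapped the controls of its line. The average log2 change was 0.50 ± 0.09 (SE, adjusted p = 0.00281), and with either siRNA alone it was 0.49 and 0.52.

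INSIG1, the sterol sensor that retains SREBPs and is itself an SREBP target, was not called in the average effect. It was at 52.6 and 38.8 FPKM in H2023 controls against 79.3 with siRNA 28 and 117 with siRNA 30. In A549 it was at 41.3 and 35.4 against 36.6 and 49.2, and in H460 at 33.1 and 36.0 against 33.8 and 25.9, so the groups overlapped in A549 and H460 and stood apart in H2023. The average log2 change was 0.33 ± 0.15 (SE, adjusted p = 0.111), and the difference between lines did not pass the test (adjusted p = 0.157). STARD4, which carries sterol between membranes, had an average of 0.44 ± 0.34 (SE, adjusted p = 0.355).

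**Figure D3:**
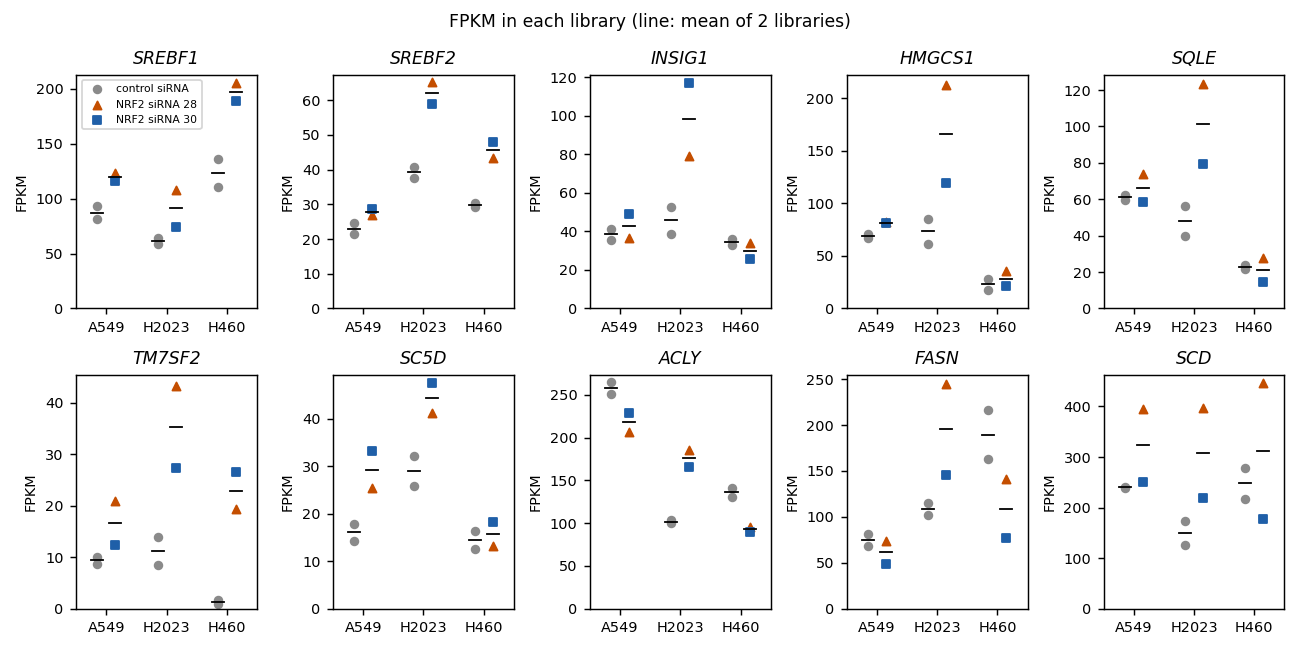
FPKM on a linear axis from 0 for 10 genes in each line; grey circles are control libraries, triangles siRNA 28, squares siRNA 30 and black lines the mean of 2 libraries. SREBF1 and SREBF2 stand above the controls in every line, TM7SF2 goes from 1.26 to 22.9 in H460, and ACLY is above its controls in H2023 and below them in A549 and H460.

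The mevalonate pathway begins with HMGCS1 (chromosome 5, 43287572 to 43313614, minus strand), HMG-CoA synthase. In A549 it was at 71.1 and 67.0 FPKM in controls against 82.5 with siRNA 28 and 80.9 with siRNA 30. In H2023 it was at 85.4 and 61.6 against 213 and 119, and in H460 at 17.9 and 28.1 against 35.2 and 20.9. The groups stood apart in A549 and H2023 and overlapped in H460. HMGCS1 rose on average by 0.54 ± 0.17 (SE, adjusted p = 0.0368). This call was lost, at an adjusted p of 0.052 to 0.168, when any 1 library was left out other than those of siRNA 30 and control replicate 0 of H2023, and it was lost with siRNA 30 alone, at 0.171. The other enzymes of this stretch, MVK, PMVK, MVD, IDI1 and FDPS, which carry mevalonate to farnesyl diphosphate, were not called in any line. The log2 changes of all 6 genes ran from 0.45 to 1.13 in H2023 (median 0.82), from -0.08 to 0.33 in A549 (median 0.22) and from -0.69 to 0.27 in H460 (median -0.23).

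TM7SF2 (chromosome 11, 64879317 to 64883856, plus strand), a sterol reductase that removes the C14 double bond after CYP51A1, changed more than any other gene of the list on average. In H460 it was at 1.61 and 0.916 FPKM in controls, the lowest of the list there, against 19.3 with siRNA 28 and 26.5 with siRNA 30. In H2023 it was at 8.47 and 14.0 against 43.3 and 27.3, and in A549 at 8.67 and 10.1 against 20.9 and 12.3. No knockdown library overlapped the controls in any line. With 1 control under 1 FPKM, TM7SF2 entered the tests of H460, of the average and between lines through its high knockdown libraries in H460. In H460 the log2 change was 3.40 ± 0.31 (SE, adjusted p = 0.0105), from a mean of 1.26 ± 0.488 FPKM to 22.9 ± 5.06 (SD, n = 2). That call was lost without control replicate 0 or 1 of H460, which left 1 control. The call was lost too with no filter, at 0.108, where 0% of all genes were called in H460. The average log2 change was 1.90 ± 0.20 (SE, adjusted p = 0.000166), and 2.05 with siRNA 28 and 1.74 with siRNA 30. The change in H460 exceeded that in A549 by 2.68 ± 0.50 (SE, adjusted p = 0.0311), and that in H2023 by 1.83 ± 0.55 (SE, adjusted p = 0.125). The test over all 3 lines gave an adjusted p of 0.061.

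SC5D (chromosome 11, 121163390 to 121184119, plus strand), the sterol C5 desaturase, was at 17.8 and 14.3 FPKM in A549 controls against 25.3 with siRNA 28 and 33.2 with siRNA 30, and at 32.1 and 25.8 against 41.3 and 47.5 in H2023. In H460 it was at 16.4 and 12.5 against 13.2 and 18.4. The groups stood apart in A549 and H2023 and overlapped in H460. SC5D rose on average by 0.51 ± 0.14 (SE, adjusted p = 0.0187). The call was lost without control replicate 1 of H2023 or of H460, at 0.0811 and 0.0952, without A549, at 0.156, and with siRNA 28 alone, at 0.0785.

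SQLE, squalene epoxidase, was at 56.6 and 40.0 FPKM in H2023 controls against 123 with siRNA 28 and 79.6 with siRNA 30. In A549 it was at 62.3 and 59.7 against 74.1 and 58.2, and in H460 at 21.7 and 23.7 against 27.6 and 14.4. The groups stood apart in H2023, and in the other lines one knockdown library was above both controls and the other below. The average log2 change was 0.32 ± 0.17 (SE, adjusted p = 0.167). Of the other genes from squalene to cholesterol, the demethylase CYP51A1 spread most between siRNAs, a choice made after its values were seen. In H460 it was at 54.3 and 45.5 FPKM in controls against 43.2 with siRNA 28 and 8.66 with siRNA 30. In H2023 it was at 52.4 and 34.7 against 125 and 32.9. The libraries of siRNA 28 and siRNA 30 thus lay far apart in both lines, and its average log2 change was -0.27 ± 0.36 (SE, adjusted p = 0.615). The log2 changes from squalene to cholesterol ran from 0.26 to 1.57 over 10 genes in H2023 (median 0.67), and over 11 genes from -0.08 to 0.82 in A549 (median 0.21) and from -1.30 to 3.40 in H460 (median -0.31). In H460, 8 of these 11 lay below 0, and 4, LSS, CYP51A1, NSDHL and DHCR7, had both knockdown libraries below both controls, near the 31.6% of all genes.

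ACLY (chromosome 17, 40023170 to 40086795, minus strand), which makes cytosolic acetyl-CoA from citrate for both routes, was the one gene of the list called in the F test of a difference between the 3 lines. In H2023 it was at 104 and 99.8 FPKM in controls against 186 with siRNA 28 and 166 with siRNA 30. In H460 it was at 131 and 142 against 95.3 and 90.1, and in A549 at 265 and 251 against 207 and 229. Both knockdown libraries lay above both controls in H2023 and below both in A549 and H460. The log2 changes were 0.78 ± 0.15 in H2023, -0.55 ± 0.21 in H460 and -0.24 ± 0.14 in A549 (SE), and the siRNAs differed by 0.03 ± 0.13 (SE) on average. The moderated F test of limma gave an adjusted p of 0.0394. Here 1 of 26 genes was called, against 0.786% of all genes, and 10 had an unadjusted p under 0.05, against 19.3%. The difference between H460 and H2023 was -1.33 ± 0.23 (SE, adjusted p = 0.0443). Leaving out any A549 library, or any control of H2023 or H460, took the adjusted p of the F test past the threshold, to 0.0522 to 0.194, as did leaving out mitochondrial genes, at 0.0635. Without the siRNA 28 library of H460, 8 genes were called in this test, against 5.06% of all genes, and without that of H2023, 3, against 4.91%.

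FASN, fatty acid synthase, had the same order of lines. It was at 115 and 103 FPKM in H2023 controls against 245 with siRNA 28 and 146 with siRNA 30, at 163 and 216 against 141 and 76.5 in H460, and at 81.9 and 67.9 against 73.7 and 49.0 in A549. The groups stood apart in H2023 and H460, in opposite directions, and overlapped in A549. The difference between lines gave an adjusted p of 0.171 and the average log2 change was -0.12 ± 0.19 (SE, adjusted p = 0.668). SCD, the stearoyl-CoA desaturase, was at 241 and 239 FPKM in A549 controls against 395 and 251, at 174 and 125 against 396 and 218 in H2023, and at 279 and 217 against 446 and 178 in H460. In each line the siRNA 28 library held the highest SCD value. Its average log2 change was 0.53 ± 0.23 (SE, adjusted p = 0.110). FADS1, the delta-5 desaturase, called lower in H460 in the fit of 12 libraries, was at 197 and 134 FPKM there in controls against 94.5 and 41.9. FADS1 and ELOVL6, which lengthens palmitate, had average changes of -0.47 ± 0.16 (SE, adjusted p = 0.0518) and -0.32 ± 0.22 (SE, adjusted p = 0.313). The 6 fatty acid genes ran from 0.10 to 1.03 in H2023 (median 0.79), from -0.31 to 0.39 in A549 (median -0.20) and from -1.36 to 0.20 in H460 (median -0.70). In H460 4 of them, ACLY, FASN, ELOVL6 and FADS1, had both knockdown libraries below both controls, where 31.6% of all genes did.

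**Figure D4:**
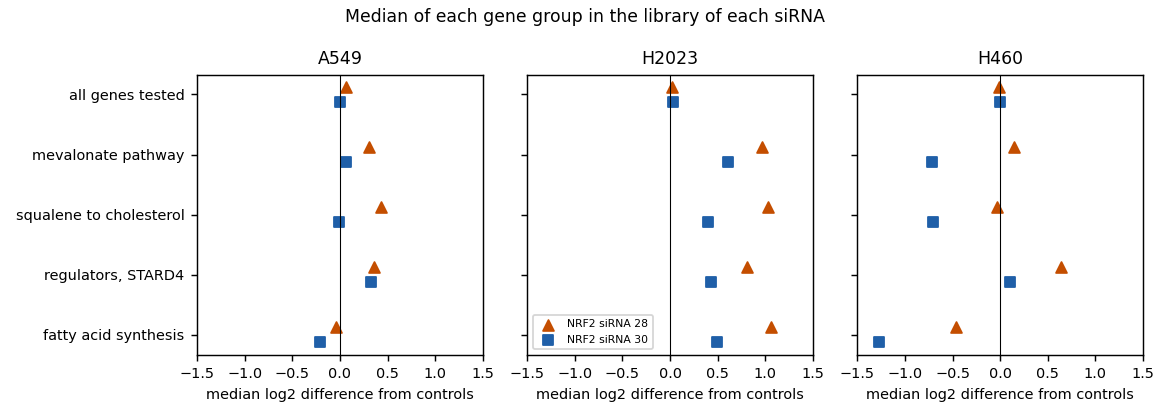
Median log2(FPKM + 1) difference from the control mean over the genes of each role, in the library of siRNA 28 (triangles) and of siRNA 30 (squares), with all genes tested in the top row. All genes sit near 0, while the median of every role is lower with siRNA 30 than with siRNA 28 in every line, and the fatty acid genes of H460 reach -1.28.

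The siRNA 28 and siRNA 30 libraries differed over the list in each line. The siRNA 28 library was above the siRNA 30 library for 23 of 27 genes in A549, where the share over all genes was 58.9%, for 23 of 26 in H2023, against 51.4%, and for 24 of 27 in H460, against 51.0%. In all 3 lines at once this held for 20 of 27 genes, against 24.2%. The siRNA 28 library was above both controls for 22 genes in A549 (46.1% of all genes), for all 26 in H2023 (42.3%) and for 13 in H460 (41.8%). The siRNA 30 library of H460 was below both controls for 21 of 27 genes, against 42.9%. NFE2L2 was at 5.31, 7.74 and 6.54 FPKM with siRNA 28 and at 7.84, 6.80 and 12.2 with siRNA 30 in A549, H2023 and H460, a difference of -0.38 ± 0.23 (SE, adjusted p = 0.438), and its part in the results was not tested.

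The replicate number runs with the siRNA, so the controls were set side by side after these counts were seen. Control replicate 0 was above control replicate 1 for 22 of 27 genes in A549, against 69.6% of all genes, for 21 of 26 in H2023, against 52.8%, and for 11 of 27 in H460, against 54.8%. Counts of siRNA 28 above siRNA 30 in A549 and H2023 were thus about as high between controls that received no NRF2 siRNA. The sizes differed, with a median log2 difference over the list of 0.18 between controls against 0.38 between siRNAs in A549, 0.17 against 0.63 in H2023 and -0.07 against 0.89 in H460. The difference between siRNAs was above that between controls for 19 of 27 genes in A549, against 47.5% of all genes, for 23 of 26 in H2023, against 49.1%, and for 23 of 27 in H460, against 47.8%. A difference between siRNAs and one between the replicates that held them cannot be told apart if the numbers mark shared batches, which the labels do not say.

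By limma on the 6 knockdown libraries with line as a covariate, 0 of 27 genes differed between siRNAs after adjustment, where 0% of all 15716 genes did. At an unadjusted p under 0.05, 18 of 27 were higher with siRNA 28, against 11.1% of all genes, and 1 was lower, SC5D, against 7.08%. With the spread taken from all 12 libraries, 13 were higher with siRNA 28 after adjustment, against 4.44%, and 0 lower, against 2.22%. These 13 were MVD, FDFT1, SQLE, LSS, CYP51A1, MSMO1, HSD17B7, DHCR7, STARD4, FASN, ELOVL6, SCD and FADS2, which include 7 enzymes from squalene to cholesterol. SREBF2, ACLY, INSIG1 and TM7SF2 were not among them, with differences of -0.03, 0.03, -0.20 and 0.31. Each siRNA was also set against the controls of all lines, with 1 knockdown library a line and the spread taken from the controls. With siRNA 28, 16 of 26 genes were higher (19.0% of all genes) and 0 lower (17.7%). With siRNA 30, 5 were higher, TM7SF2, SC5D, INSIG1, SREBF1 and SREBF2 (17.4%), and 6 were lower, CYP51A1, NSDHL, DHCR7, FASN, ELOVL6 and FADS1 (19.7%). TM7SF2, SREBF1 and SREBF2 were called higher with both, though TM7SF2 passed the filter in H460 only through its knockdown libraries.

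Other genes of sterol and lipid metabolism, from lists set by pathway, were counted in the average effect, where 15.1% of all genes were higher and 14.5% lower. The lists are short, and nothing is read from their counts about a list. Among genes of sterol sensing and SREBP processing, MBTPS1, the protease that makes the first cut in SREBPs, rose by 0.67 ± 0.11 (SE, adjusted p = 0.00161). VCP, which extracts proteins from the membrane for degradation, and ERLIN1 had changes of -0.49 and -0.43. Of 10 other sterol and isoprenoid genes tested, GGPS1, geranylgeranyl diphosphate synthase, rose by 0.57 ± 0.15 (SE, adjusted p = 0.0186), and PDSS1, which makes the tail of coenzyme Q, and RABGGTB had changes of -1.08 and -0.69.

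Of 11 genes of sterol uptake, trafficking and efflux, 3 rose and 1 fell, again beside 15.1% and 14.5% of all genes. LIPA, the lysosomal acid lipase, NPC2, which moves cholesterol out of lysosomes, and OSBPL5 rose by 0.64, 0.60 and 0.62. LRP8, a lipoprotein receptor, was at 34.1 and 28.5 FPKM in A549 controls against 12.9 and 14.1 after knockdown, at 99.9 and 127 against 22.0 and 27.4 in H2023, and at 88.1 and 84.2 against 15.1 and 16.6 in H460. No LRP8 library overlapped between groups, and its average change was -1.89 ± 0.11 (SE, adjusted p = 2.37e-06). Of 19 other fatty acid and glycerolipid genes, 4 rose and 1 fell, beside the same shares, with ACSS2, acetyl-CoA synthetase, at 1.04, MLXIPL, a carbohydrate-responsive factor, at 0.77, SLC25A1, the citrate carrier, at 0.35 and GPAM, which starts glycerolipid synthesis, at -0.56. The 8 NRF2 genes kept as a check, NFE2L2 among them, were lower in each line by the test.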

How the data were processed

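RNA was sequenced from 12 libraries, 2 in each of 6 groups. For each library the authors deposited a table of FPKM per gene. The study's methods name TopHat and Cufflinks on hg19, whereas the submitters' processing notes name cutadapt 1.15, STAR 2.5.3a, Cuffnorm and HTSeq with GRCh37.p13, so the aligner behind the FPKM values is uncertain. Cufflinks-type estimates share reads between similar transcripts. Per the labels the libraries were strand-specific. The authors' DESeq2 tables hold their own fold changes and p-values per line and were not used.

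Identifiers were matched to symbols without version (96.1% matched), with gene positions from an annotation on GRCh37. A total of 12710 values under 1e-06 were set to 0. Values were analysed as log2(FPKM + 1) in limma 3.58.1 under R 4.3.3, with the prior variance following mean expression, two-sided tests, Benjamini-Hochberg adjustment over all genes tested and a threshold of 0.05. Genes needed at least 1 FPKM in at least 2 libraries of a line, of every line for the average and the difference between lines, and of the 6 knockdown libraries for the siRNAs. Each line was fitted alone (2 residual degrees of freedom). The average and the difference between lines came from 1 fit of 12 libraries with a weight per line, and siRNA 28 was compared with siRNA 30 in the 6 knockdown libraries with line as covariate. Samples were grouped by their labels. The scripts were tested on simulated data. No pair of libraries held identical values.

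Per-library values are given for members called in the fit of a single line, in the average effect, in the F test between lines or in the siRNA fit of 6 libraries, and for SREBF1, SREBF2, INSIG1, HMGCS1, SQLE, FASN, SCD and ACLY, 10 in all, and in part for CYP51A1 and FADS1, chosen after their values were seen. From each pathway list at most 4 called genes with the largest average change are named, and LRP8 is given per library. Some results of the pathway lists are not reported here. The gene list, the pathway lists and the tests were chosen with earlier results of these data known. Alternatives changed the pseudocount to 0.1, the filter, the scaling, the weights, the trend, the replicate block and each library in turn. Promoter sequences are those of RefSeq on GRCh38.p14. Figures used Python 3.11.15, pandas 2.3.3, numpy 2.4.6 and matplotlib 3.10.9.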

Additional observations from a re-analysis of the deposited data

Results flagged for a closer look

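ACLY, ATP citrate lyase, is listed because its change after NRF2 siRNA differed between the cell lines by the test of the difference itself. The adjusted p of limma's moderated F test was 0.0394, with log2 changes of 0.78 in H2023, -0.55 in H460 and -0.24 in A549. All 4 knockdown libraries of A549 and H460 were below their controls and both of H2023 were above them. The cause was not tested.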

How the results depend on the processing

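The libraries were not treated as paired, because the labels do not say what a replicate number marks and the deviations of same-numbered libraries from their group means did not correlate above 0.1 in every line, at -0.03 (A549), 0.31 (H2023) and 0.16 (H460). With a replicate block, 9 genes were called higher in H2023 (2.94% of all genes) and 5 in H460 (23.6%), of which 4 were lower (11.4%), 0 differed between lines (0.0346%), and the adjusted p of ACLY for that difference was 0.0755. The fit of 12 libraries called 4 genes in H2023 (4.17% of all genes), 4 in H460 (21.7%) and 1 in A549 (1.83%). With no filter H460 had 0, where 0% of all genes were called. The number of genes that differed between lines was 2 with a pseudocount of 0.1 (0.916% of all genes) and with no weight per line (2.51%), and 0 with no trend (0.640%) or with H2023 and H460 only (0.0173%). Restricted to H2023 and H460, chosen after seeing the data, 3 genes were higher on average (11.3% of all genes). Over all 3 lines 16 were higher with siRNA 28 only, and 11 were called with siRNA 30 only, 5 higher and 6 lower. Taking the spread from all 12 libraries gave 13 genes higher with siRNA 28 (4.44% of all genes) and 0 lower (2.22%). Leaving out 1 library at a time gave 0 to 17 genes in H2023, 0 to 12 in H460, 3 to 11 for the average effect and 0 to 8 for the difference between lines. In these fits, which leave 1 library in a group, the share of all genes called also moved widely with the library left out. Nothing is read from these counts about the list. The change of SQLE in A549 went to -0.0013 without mitochondrial genes. Leaving out 1 library turned the sign of INSIG1 (-0.063 to 0.35) and SQLE (-0.066 to 0.28) in A549, and of HMGCS1 (-0.095 to 0.63), SC5D (-0.11 to 0.34), SQLE (-0.62 to 0.27) and SCD (-0.46 to 0.86) in H460. Causes were not tested. Average effects of the 5 called genes kept direction and call in 96 of 110 alternative values and lost the call in 14, all of HMGCS1 or SC5D, whereas the difference between lines of ACLY kept its call in 8 of 20 and lost it in 12. With 2 libraries a group and no read counts, small changes of single genes may have been missed.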
